A study of Mus musculus with 483 samples.

Results

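The 9 genes described here encode the vascular endothelial growth factor (VEGF) ligands Vegfa, Vegfb, Vegfc and Pgf, the receptors Kdr, Flt1 and Flt4, and the co-receptors Nrp1 and Nrp2. They were chosen by name, and all 9 were among the 46078 genes of the count table. Single cells of the mouse aorta with the surrounding gonads and mesonephros had been sorted for CD31 and Kit and against CD45, and their RNA was read by the full-length Smart-seq2 method. The labels divide 483 cells into Ctrl and aDll4-treated and do not explain aDll4. They name no embryo, age, strain or culture, and every cell of both groups came through the same gate.

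VEGF ligands are secreted proteins that bind receptor tyrosine kinases on endothelial cells. Kdr (VEGF receptor 2) carries most of the growth, survival and migration signal of Vegfa, and Flt1 (VEGF receptor 1) binds Vegfa, Vegfb and Pgf with weak kinase activity and also exists as a soluble decoy, which counts per gene cannot separate. Flt4 (VEGF receptor 3) binds Vegfc and is known from lymphatic and sprouting vessels. Neuropilins bind VEGF ligands and class 3 semaphorins, and Nrp1 is known as an arterial and Nrp2 as a venous and lymphatic co-receptor. Dll4, a Notch ligand, is induced by VEGF signalling in sprouting endothelium, and Notch in turn restrains the VEGF response of neighbouring cells.

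All 9 are protein-coding genes, placed here on the mm10 build. The ligand genes are Vegfa (ENSMUSG00000023951) at chr17:46016993-46032369, Vegfb (ENSMUSG00000024962) at chr19:6982473-6987651, Vegfc (ENSMUSG00000031520) at chr8:54077606-54187096 and Pgf (ENSMUSG00000004791) at chr12:85166635-85177790. The receptor genes are Kdr (ENSMUSG00000062960) at chr5:75932827-75978458, Flt1 (ENSMUSG00000029648) at chr5:147561604-147726011 and Flt4 (ENSMUSG00000020357) at chr11:49609263-49652739. The neuropilin genes are Nrp1 (ENSMUSG00000025810) at chr8:128358604-128503363 and Nrp2 (ENSMUSG00000025969) at chr1:62703285-62818695. Vegfc, Flt4, Nrp1 and Nrp2 lie on the plus strand and the others on the minus strand.

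The submitters' labels put the cells into 7 ICGS clusters. Ctrl cells of clusters 1, 2 and 3 numbered 97, 73 and 31, and treated ones 86, 72 and 36. In clusters 4 to 7 there were 10, 6, 14 and 8 cells labelled Ctrl, and 12, 7, 19 and 12 labelled treated. Levels are given as reads of a gene, summed over cells, per 1000000 gene-assigned reads (CPM). The 10 endothelial markers summed to 8915, 7721 and 5663 CPM in clusters 1, 2 and 3, against 90.2 to 518 CPM in clusters 4 to 7, and clusters 1 to 3 are called endothelial-like. Their 10 hematopoietic markers summed to 95.9 to 223.6 CPM, against 1546 and 2616 CPM in clusters 6 and 7, although the labels call the cells hematopoietic stem cells. Cluster 5 (13 cells) was mesenchyme-like, with 9 of 9 mesenchymal markers above 1 CPM. Cluster 7 (20 cells) was megakaryocyte-like, with 4 megakaryocyte markers summing to 9434 CPM. Cluster 6 (33 cells) was hematopoietic-like, with 5 erythroid markers at 1135 CPM, and cluster 4 (22 cells) was left unnamed. The endothelial-like cells numbered 395. Gene-assigned reads per endothelial-like cell ranged from 136928 to 2870618 in Ctrl and from 123097 to 2451790 in treated cells. Library numbers fell into 2 blocks and, within these, 6 runs of 96 numbers. The labels do not say what the blocks are.

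The bases before the start sites of Kdr, Flt1, Nrp1 and Nrp2 are printed first, so that these receptors and neuropilins can be set beside each other. They are from RefSeq on GRCm38.p6, up to 250 bases before the annotated start and without bases that GENCODE annotates as exon, read 5′ to 3′ along the gene. The Nrp1 window precedes a RefSeq start inside the GENCODE span of the gene given above, and the other 3 windows lie outside their genes. Capitals mark GGAAG, the ETS core, or TGGGAA, the RBPJ core, the DNA element of the Notch effector, on either strand.
Kdr (chr5:75978459-75978705, minus strand): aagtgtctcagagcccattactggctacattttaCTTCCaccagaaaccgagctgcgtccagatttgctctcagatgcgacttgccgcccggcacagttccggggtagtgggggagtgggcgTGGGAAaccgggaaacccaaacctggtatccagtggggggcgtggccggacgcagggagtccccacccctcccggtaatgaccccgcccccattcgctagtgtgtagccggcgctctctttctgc
Flt1 (chr5:147726012-147726261, minus strand): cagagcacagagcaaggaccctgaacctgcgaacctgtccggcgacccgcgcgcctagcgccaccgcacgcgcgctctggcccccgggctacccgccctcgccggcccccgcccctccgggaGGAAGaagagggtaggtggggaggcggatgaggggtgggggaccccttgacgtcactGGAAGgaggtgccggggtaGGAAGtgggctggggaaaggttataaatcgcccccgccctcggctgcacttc
Nrp1 (chr8:128358823-128359072, plus strand): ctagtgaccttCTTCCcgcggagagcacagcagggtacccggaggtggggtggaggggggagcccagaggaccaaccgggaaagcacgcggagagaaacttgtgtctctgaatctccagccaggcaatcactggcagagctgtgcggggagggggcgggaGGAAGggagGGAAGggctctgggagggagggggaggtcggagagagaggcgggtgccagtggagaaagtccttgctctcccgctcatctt
Nrp2 (chr1:62703067-62703284, plus strand): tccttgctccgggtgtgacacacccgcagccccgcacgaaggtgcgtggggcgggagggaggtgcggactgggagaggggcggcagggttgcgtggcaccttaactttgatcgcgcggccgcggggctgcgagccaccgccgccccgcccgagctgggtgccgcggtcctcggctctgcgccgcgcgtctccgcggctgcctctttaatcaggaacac
All 9 members matched the table by symbol. Of its 32851 promoters, 64.1% held the ETS core and 21.6% the RBPJ core within the same 250 bases on either strand. Kdr held 1 RBPJ core and, on the opposite strand, 1 ETS core. Flt1 held 3 ETS cores, the nearer of which lay 71 and 52 bases before the start. Nrp1 also held 3, of which those on the gene's strand lay 90 and 81 bases before the start, while the printed bases of Nrp2 held neither core. The GATA site AGATAA, found in 9.99% of all promoters, was in none of the 4 windows. The other members are not printed. The Vegfa start with bases free of exon held 2 RBPJ cores, 1 ETS core and 1 GATA site. The windows of Vegfb and Vegfc held none of these, and Flt4 and Pgf had no bases free of exon. A match of letters is a description and no measurement of binding.

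Kdr was the member with the highest level per length in Ctrl endothelial-like cells, and the ligands were the lowest. Kdr was at 94.2 CPM per kb of exon, Flt1 at 63.5, Nrp1 at 42.6, Flt4 at 25.1 and Nrp2 at 18.6 CPM per kb. Vegfc followed at 15.9 CPM per kb, far above Vegfb at 4.29, Pgf at 0.994 and Vegfa at 0.410 CPM per kb. In CPM not divided by length, Kdr (run range 526 to 997) and Flt1 (740 to 1027) overlapped, as did Flt4 (108.3 to 298) and Nrp2 (156.5 to 265). The order in Ctrl cells changed between clusters: Nrp1 was above Flt1 per kb in cluster 2 (49.3 against 44.8), and Nrp2 was above Nrp1 in cluster 3 (22.4 against 20.1). The Ctrl runs overlapped in both cases. In cluster 2 Flt1 ranged from 439 to 1142 CPM and Nrp1 from 319 to 868. In cluster 3 Nrp1 ranged from 5.34 to 572 CPM and Nrp2 from 2.67 to 355. Neither order held in treated cells, where Nrp1 exceeded Nrp2 by 3.43 times per kb in cluster 3. Each treatment counts as 1 sample, because no label tells embryos apart, so these and all later values are descriptions without a test.

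**Figure D1:**
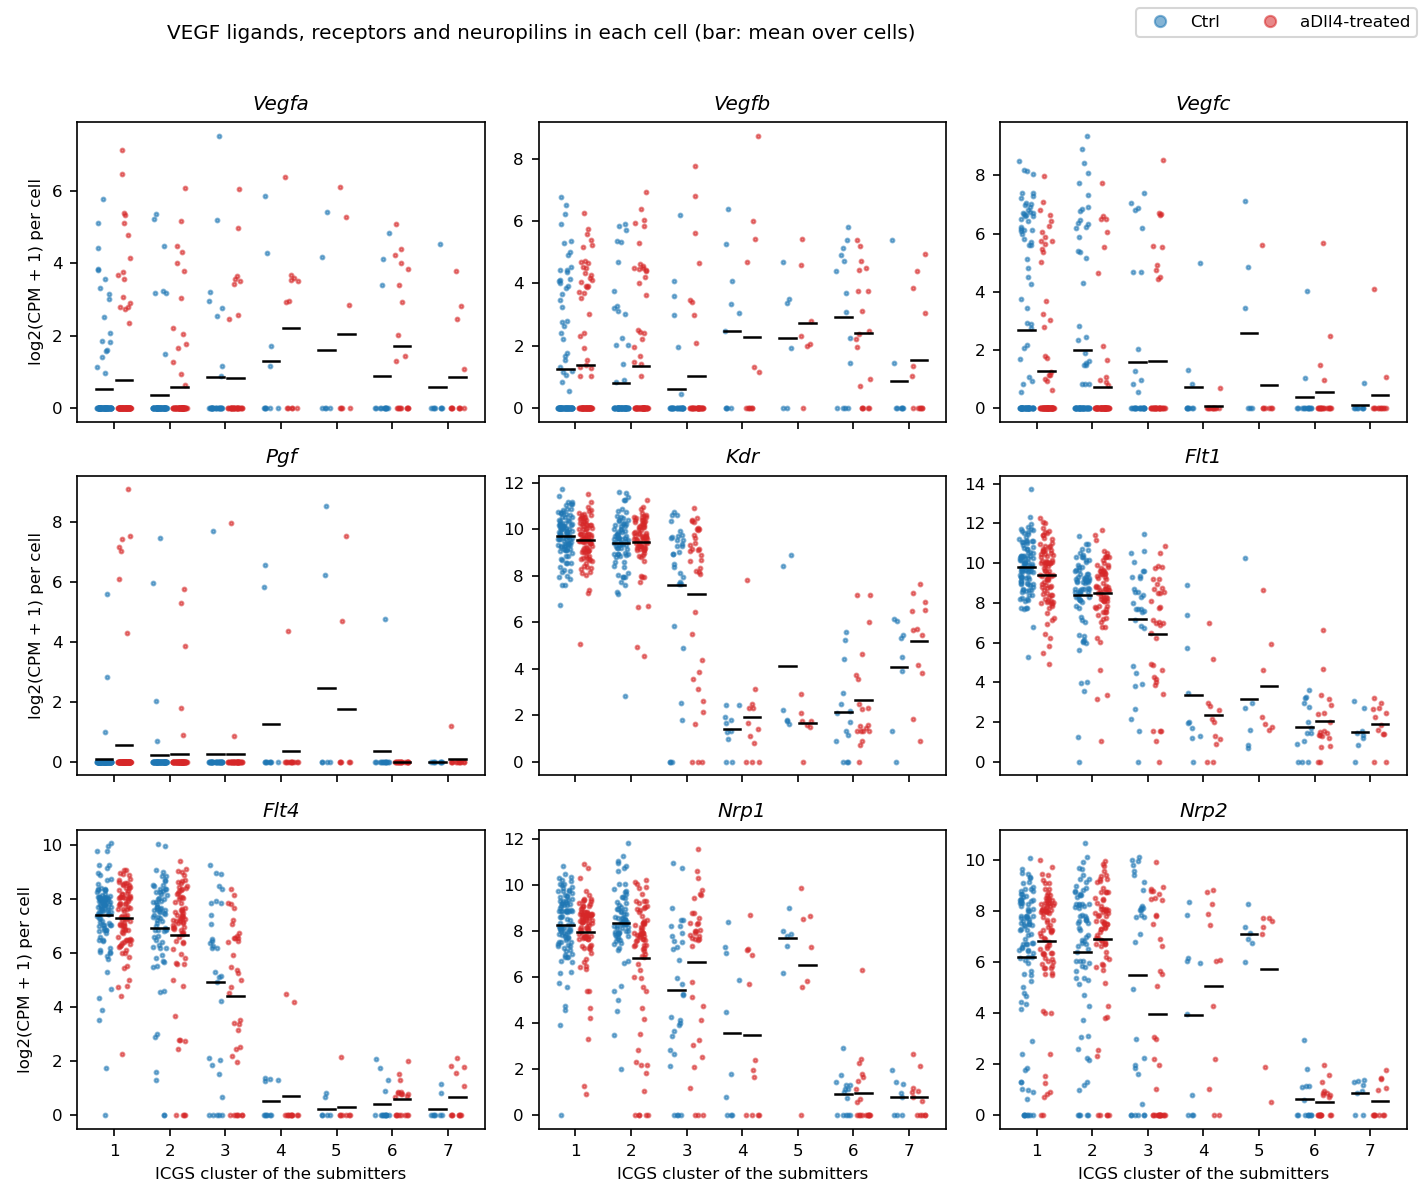
Level of each member in every cell, as log2(CPM + 1) on the vertical axis, by ICGS cluster of the submitters on the horizontal axis, with Ctrl cells in blue, aDll4-treated cells in red and a black bar at the mean over cells. Kdr, Flt1 and Flt4 are high in clusters 1 to 3, Nrp1 and Nrp2 are also high in cluster 5, and most cells have no Vegfa or Pgf read.

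Kdr, the main signalling receptor, was detected with 10 or more reads in 96.5% of Ctrl endothelial-like cells (exact binomial 95% interval 92.96% to 98.59%, counting error only). Its level over both treatments was 910 CPM in cluster 1, 845 in cluster 2 and 514 in cluster 3. The median Ctrl cell of clusters 1 to 3 had 776 CPM and the highest 3376 CPM. Cluster 3 was more uneven than the others: the SD over its Ctrl cells was 3.29 on the log2(CPM + 1) scale, against 0.92 in cluster 1, and 25 of 31 Ctrl cells had 10 or more reads. Over both treatments its cells had a median of 669599 gene-assigned reads and 5937 detected genes, against 931920 and 7795 in cluster 1. The 9 mesenchymal markers summed to 336 CPM in cluster 3, against 30.8 in cluster 1. The part of depth and mixed content in the cluster differences of all members was not tested.

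Outside clusters 1 to 3, Kdr stood apart from the other receptors in the megakaryocyte-like cluster 7. Kdr was at 47.04 CPM (exact Poisson 95% interval 44.1 to 50.1) in cluster 7, and 16 of 20 cells had 10 or more reads. Flt1, Flt4, Nrp1 and Nrp2 reached 10 reads in 0 of these 20 cells, with levels of 2.74, 0.59, 0.93 and 0.73 CPM. Both treatments showed it, with Kdr at 34.1 CPM in 8 Ctrl cells and 56.6 CPM in 12 treated cells. The median cell of cluster 7 had 43.1 CPM of Kdr, against 1.91 to 2.38 CPM in clusters 4, 5 and 6. The endothelial markers summed to 518 CPM in cluster 7, and the part of endothelial RNA in its Kdr reads was not tested.

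Flt1, the decoy-forming receptor, had the steepest order of the receptors across the endothelial-like clusters, with 1134 CPM in cluster 1, 598 in cluster 2 and 311 in cluster 3 over both treatments. The Ctrl runs of cluster 1 (847 to 1436 CPM) and cluster 2 (439 to 1142 CPM) overlapped. Per kb, Kdr exceeded Flt1 by 1.21 times in Ctrl cluster 1, 2.09 times in cluster 2 and 2.22 times in cluster 3. A Ctrl cell of cluster 1 had the highest level of any member in a single cell, 13380.5 CPM of Flt1.

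Flt4, the Vegfc receptor, was at 216.7, 181.9 and 114.6 CPM in clusters 1, 2 and 3 and at 0.32 to 1.86 CPM in clusters 4 to 7. It had 10 or more reads in 90.05% of Ctrl endothelial-like cells. A read of Flt4 was nonetheless present in 23.1% to 45.5% of the cells of clusters 4 to 7, and a read of Kdr in 77.3% to 95%, so shares of cells with 10 or more reads are used throughout. The 3 lymphatic markers summed to 26.4, 54.7 and 98.5 CPM in clusters 1, 2 and 3. Clusters 4 and 5 were at 42.5 and 59.4 CPM, and the runs of cluster 3 spanned 0.31 to 256 CPM. The markers differed in their order: Prox1 was at 17.4, 17.7 and 83.1 CPM in clusters 1, 2 and 3. Lyve1 was at 8.55, 36.5 and 15.3 CPM, and Pdpn at 0.43, 0.42 and 0.06 CPM.

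Both neuropilins were also present in most mesenchyme-like cells of cluster 5. Nrp1 was at 404, 387 and 300 CPM in clusters 1, 2 and 3 and at 267 CPM in the mesenchyme-like cluster 5, where 12 of 13 cells had 10 or more reads. Nrp2 was at 207.8, 233.4 and 209.8 CPM in clusters 1 to 3, at 97.5 in cluster 4 and at 137.2 in cluster 5, where 11 of 13 cells had 10 or more reads. Kdr reached 10 reads in 2 of those 13 cells, Flt1 in 4 and Flt4 in 0. Flt1 was at 137.6 CPM in cluster 5 and 54.4 CPM in cluster 4, and 54.7 and 24.4 CPM without the highest cell of each, which held 63.1% and 58.1% of the reads. In the hematopoietic-like clusters both neuropilins were low, at 4.01 and 0.59 CPM in cluster 6.

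Among the ligands, Vegfc had the highest levels in endothelial-like cells. It was at 29.4, 25.97 and 33.5 CPM in clusters 1, 2 and 3, at 16.2 in cluster 5 and at 0.39 to 2.50 CPM in clusters 4, 6 and 7. Without the highest cell of each, clusters 1, 2 and 3 were at 27.2, 21.2 and 21.4 CPM. The share of cells with 10 or more Vegfc reads was 29.5%, 17.9% and 22.4% in clusters 1, 2 and 3 and 30.8% in cluster 5 (4 of 13 cells), where 1 cell held 60.4% of the reads. Vegfb, a ligand of Flt1, was at 4.44 to 25.9 CPM in all 7 clusters, with the highest value in cluster 4, where 1 of 22 cells held 48.7% of the reads. Without that cell cluster 4 was at 13.7 CPM, below cluster 6 at 14.6 CPM. Vegfa, the main ligand of Kdr, was at 2.05 to 3.88 CPM in clusters 1 to 3 and highest in cluster 5 (13.97 CPM, 5 of 13 cells with 10 or more reads). Pgf, the placental growth factor that binds Flt1, was also highest in cluster 5, at 51.3 CPM from 4 of 13 cells. The highest cell of cluster 5 for each gene held 47.9% of the Vegfa reads and 59.6% of the Pgf reads. Without it the levels were 8.07 CPM for Vegfa and 22.6 CPM for Pgf, still the highest of the clusters.

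The treatment comparison asks how cells labelled aDll4-treated differed from Ctrl cells. Within endothelial-like cells the receptors and neuropilins were close between treatments, Vegfc was lower, mainly in block 1, and Vegfa and Pgf were higher in treated cells on few reads. A gene is called past the fold where its log2 ratio of treated over Ctrl, with 1 CPM added to both levels, was 0.5 or more in size and had the same sign in both blocks. Of the 9 members, 3 were past the fold, Vegfa and Pgf higher and Vegfc lower, and 0 of the 5 receptors and neuropilins were. Over 15204 measured genes, 4.81% were past the fold higher and 6.95% lower, and the median log2 ratio was 0.00. In all, 6 of 9 members were lower in treated cells, against 49.8% of all measured genes.

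**Figure D2:**
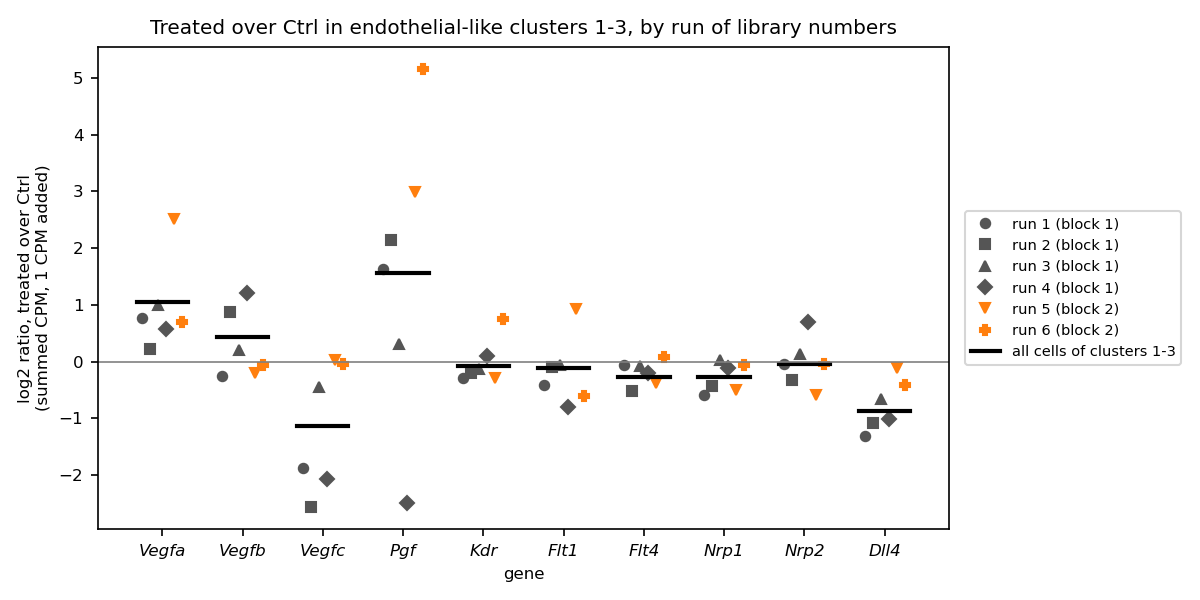
Log2 ratio of treated over Ctrl levels (1 CPM added to each) in the endothelial-like clusters on the vertical axis, for each member and Dll4 on the horizontal axis. Grey symbols are the 4 runs of block 1, orange symbols the 2 runs of block 2 and black bars all cells together; the receptor runs lie on both sides of 0, Vegfa is above 0 in 6 of 6 runs, and Vegfc is near 0 in both runs of block 2.

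In Ctrl Kdr was at 850.4 CPM (Poisson interval 846 to 855; runs 526 to 997, median 837), and in treated cells at 806 CPM (802 to 811; runs 712 to 886, median 799). The runs overlapped, and the log2 ratio of -0.08 came from -0.12 in block 1 against 0.05 in block 2. In Ctrl Flt1 was at 858 CPM (runs 740 to 1027, median 869), and in treated cells at 789 CPM (runs 592 to 1406, median 698). Its log2 ratio of -0.12 also had opposite signs in the blocks, -0.35 and 0.35.

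Flt4 and Nrp1 were lower in both blocks and in 5 of 6 runs, by less than the fold used. In Ctrl Flt4 was at 206.6 CPM (runs 108.3 to 298, median 189.7), and in treated cells at 170.5 CPM (runs 115.3 to 208.2, median 173.7), a log2 ratio of -0.28. Nrp1 was at 416 CPM (runs 339 to 465, median 423) and 345 CPM (runs 268 to 423, median 338), a log2 ratio of -0.27. The runs of the treatments overlapped for both genes. The share of cells with 10 or more Nrp1 reads was 94.03% in Ctrl against 88.1% in treated cells, a difference of -5.89 percentage points. In cluster 2 this share was 71 of 73 Ctrl cells and 61 of 72 treated cells, and the Nrp1 log2 ratio was -0.76, while in cluster 3 it was 1.08.

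In Ctrl Nrp2 was at 220.3 CPM (runs 156.5 to 265, median 223.4), and in treated cells at 213.8 CPM (runs 175.7 to 256, median 208.8). Its log2 ratio of -0.04 was the smallest in size of the 9, with overlapping runs. GENCODE annotates Gm29083 on the opposite strand of Nrp2, with 485 reads in all cells, and Gm37121 within it on the same strand, with 1141 reads, against 80719 for Nrp2. Libraries of this kind do not keep the strand.

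Vegfc was the member with the largest difference in the share of cells. In Ctrl it was at 39.01 CPM (Poisson interval 38.1 to 39.9; runs 11.96 to 52.5, median 36.99), and in treated cells at 17.1 CPM (16.5 to 17.8; runs 7.23 to 53.2, median 10.1). The log2 ratio of -1.14 came from -1.79 in block 1 against -0.34 in block 2, and the runs overlapped. Each run of block 2 held both treatments, and within runs 5 and 6 the log2 ratios were 0.02 and -0.05, close to 0. The -0.34 pooled 28 Ctrl cells of run 5 and 19 of run 6 with 22 and 26 treated cells. Without run 6 the signs of the blocks differed, and Vegfc was not past the fold. The share of cells with 10 or more reads was 31.3% in Ctrl against 16.5% in treated cells, a difference of -14.8 percentage points, and it was lower in treated cells in 6 of 6 runs. In run 5, 1 treated cell held 47.8% of the Vegfc reads of treated cells in that run. Cluster 3 went the other way, with 23.99 CPM in Ctrl against 44.3 CPM in treated cells, of which 1 cell held 61.6%.

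**Figure D3:**
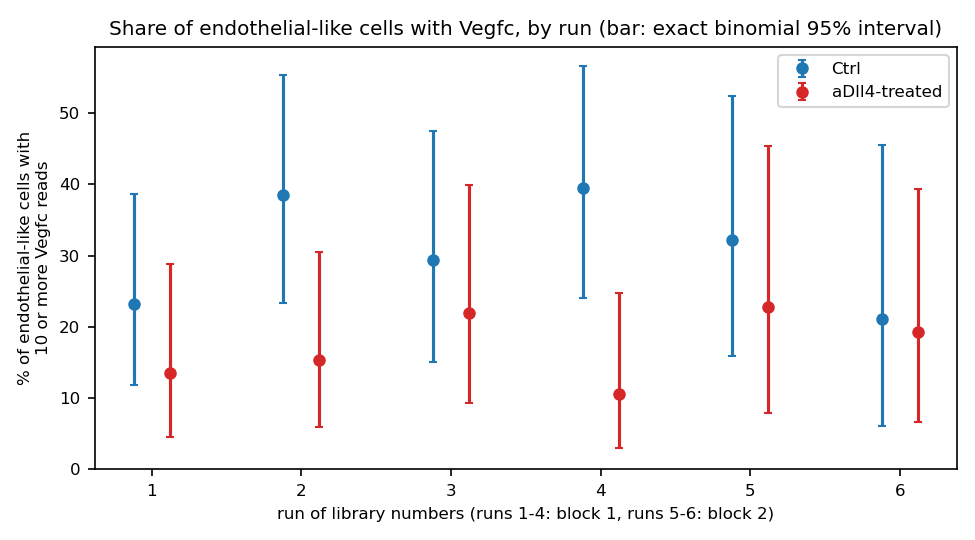
Percentage of endothelial-like cells with 10 or more Vegfc reads on the vertical axis, by run of library numbers on the horizontal axis, with Ctrl in blue and aDll4-treated in red and bars for the exact binomial 95% interval, which covers counting error only. The treated share is below the Ctrl share in each of the 6 runs, and the intervals overlap in every run.

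Blocks and treatments also differed in embryo sex. By 10 or more reads of Xist or of Y-linked genes, Ctrl endothelial-like cells were 73 Y-positive and 71 Xist-positive in block 1 and 19 and 21 in block 2. Treated cells of block 1 were 88.4% Y-positive with 0 Xist-positive cells, and those of block 2 held 44 Xist-positive and 0 Y-positive cells. Among Y-positive cells of block 1 the Vegfc log2 ratio was -2.02, and among Xist-positive cells of block 2 it was 0.17. Treatment and embryo cannot be told apart in these cells. The 8 arterial markers, which include Dll4, summed to 1258 CPM in Ctrl against 841 CPM in treated cells (runs 972 to 1452 and 611 to 1241), and the 4 venous markers to 1008 and 1050 CPM; the part of either in the Vegfc difference was not tested.

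Vegfa and Pgf were higher in treated cells on few reads. In Ctrl Vegfa was at 1.76 CPM (runs 0.784 to 4.21, median 1.73), and in treated cells at 4.74 CPM (runs 2.91 to 9.15, median 3.30), a log2 ratio of 1.06. It was higher in treated cells in 6 of 6 runs, although the run ranges overlapped. Vegfa was not past the fold with cells thinned to equal depth (0.49), by mean CPM over cells (0.42), with 10 CPM added (0.33), by the difference of mean log2(CPM + 1) (0.20) or in Y-positive cells of block 1 (0.39). Cells with 10 or more reads numbered 11 in Ctrl and 18 in treated cells (5.47% and 9.28%), and 1 treated cell held 28.2% of the treated reads. In Ctrl Pgf was at 2.89 CPM (runs 0 to 10.4, median 0.761), and in treated cells at 10.4 CPM (runs 0.0304 to 34.8, median 7.89), from 4 and 11 cells with 10 or more reads. A single cell held 57.8% of its Ctrl reads and another 51.7% of its treated reads. The Pgf log2 ratio of 1.56 came from 0.42 in block 1 against 4.45 in block 2. It was 0.75 without run 6 and 2.18 without run 3, and without run 2 its blocks had opposite signs. Over all 7 clusters it was 0.49 and not past the fold. Vegfb was at 6.88 and 9.60 CPM (log2 ratio 0.43, or 0.60 and past the fold without run 1), higher in 3 runs and lower in 3.

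The relation of the members to Dll4 was described over the Ctrl cells of clusters 1 to 3. Nrp1, Flt1, Kdr and Flt4 were higher in cells with more Dll4, and Nrp2 was lower. Spearman's rho with Dll4 was 0.49 for Nrp1, 0.42 for Flt1, 0.33 for Kdr, 0.24 for Flt4 and -0.30 for Nrp2. A rho of 0.2 or more in size was called, which 5.31% of 12777 genes reached above 0 and 5.8% below 0. All 5 receptors and neuropilins were called in this population, 4 above 0 and 1 below. Among the ligands Vegfc had a rho of 0.26, with 0.33 in block 1 and 0.09 in block 2, and Vegfa, Vegfb and Pgf had -0.02, -0.06 and 0.01. The points share library depth and cluster makeup. GENCODE annotates Gm14207 on the opposite strand of Dll4, with 4555 reads in all cells, which these libraries cannot tell from Dll4 where the genes overlap. With each cell thinned to 120000 reads, rho was 0.47 for Nrp1, 0.42 for Flt1 and -0.30 for Nrp2.

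**Figure D4:**
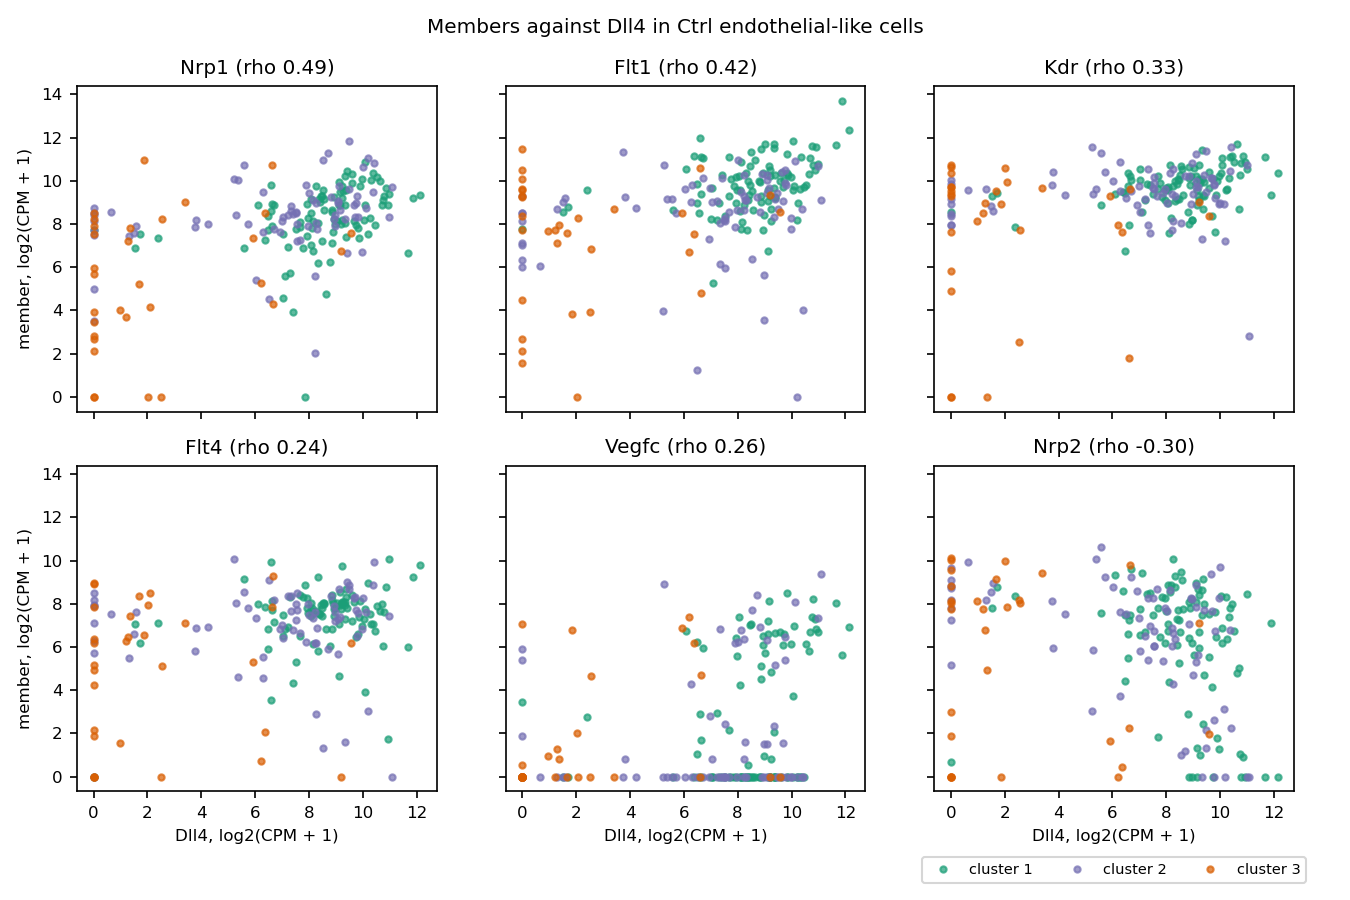
Level of 6 members on the vertical axes against Dll4 on the horizontal axes, both as log2(CPM + 1), in the Ctrl cells of clusters 1 to 3, coloured by ICGS cluster. Nrp1 is higher in cells with more Dll4 (rho 0.49), Nrp2 is low or at 0 in many cells with the most Dll4 (rho -0.30), and Dll4 itself is low in most cells of cluster 3.

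Nrp1 kept a rho with Dll4 above the threshold inside each cluster, at 0.48, 0.41 and 0.33 in clusters 1, 2 and 3, and in both blocks, at 0.47 and 0.51. Flt1 had 0.37, 0.21 and -0.09 in the 3 clusters, and 0.52 in block 1 against 0.17, under the threshold, in block 2. Kdr had 0.42, 0.13 and -0.12 in the clusters, and 0.33 and 0.25 in the blocks. Flt4 had 0.14, 0.11 and 0.10 in the clusters, all under the threshold, and 0.15 in block 1 against 0.40 in block 2. Nrp2 had -0.34, -0.46 and -0.05 in the clusters, and -0.38 in block 1 against -0.08 in block 2. In treated cells rho was 0.33 for Nrp1, 0.40 for Flt1, 0.19 for Kdr, 0.31 for Flt4 and -0.14 for Nrp2. The differences between treatments were not tested.

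The members were also related to each other. Vegfc and Nrp2 had the lowest rho of any pair, -0.44 over Ctrl endothelial-like cells, with -0.46, -0.47 and -0.34 in clusters 1, 2 and 3 and -0.49 and -0.33 in the blocks. Ctrl cells with 10 or more Vegfc reads had a median of 34.7 CPM of Nrp2, against 215.2 CPM in those with fewer. The median of Nrp1 was 477 CPM in the former and 255 CPM in the latter. The same medians in treated cells were 80.7 and 178.5 CPM for Nrp2, and 269 and 248 CPM for Nrp1. In treated cells the rho of Vegfc and Nrp2 was -0.18, but the pair was picked by its value in Ctrl cells. Nrp1 and Nrp2 had a rho of -0.23, and Kdr had 0.31 with Flt1, 0.31 with Flt4 and 0.32 with Nrp1. The values of Kdr varied between clusters 1, 2 and 3 and between the blocks. With Flt1 they were 0.46, 0.10 and -0.06 in the clusters and 0.35 and 0.11 in the blocks. With Flt4 they were 0.07, 0.36 and 0.49 in the clusters and 0.21 and 0.49 in the blocks. With Nrp1 they were 0.40, 0.25 and -0.12 in the clusters and 0.40 and 0.07 in the blocks. Both neuropilins had 10 or more reads in 74.1% of Ctrl and 73.2% of treated cells. In Ctrl, Nrp1 by itself reached that depth in 94.03% and Nrp2 in 78.1% of cells, shares that already place both in most cells.

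**Figure D5:**
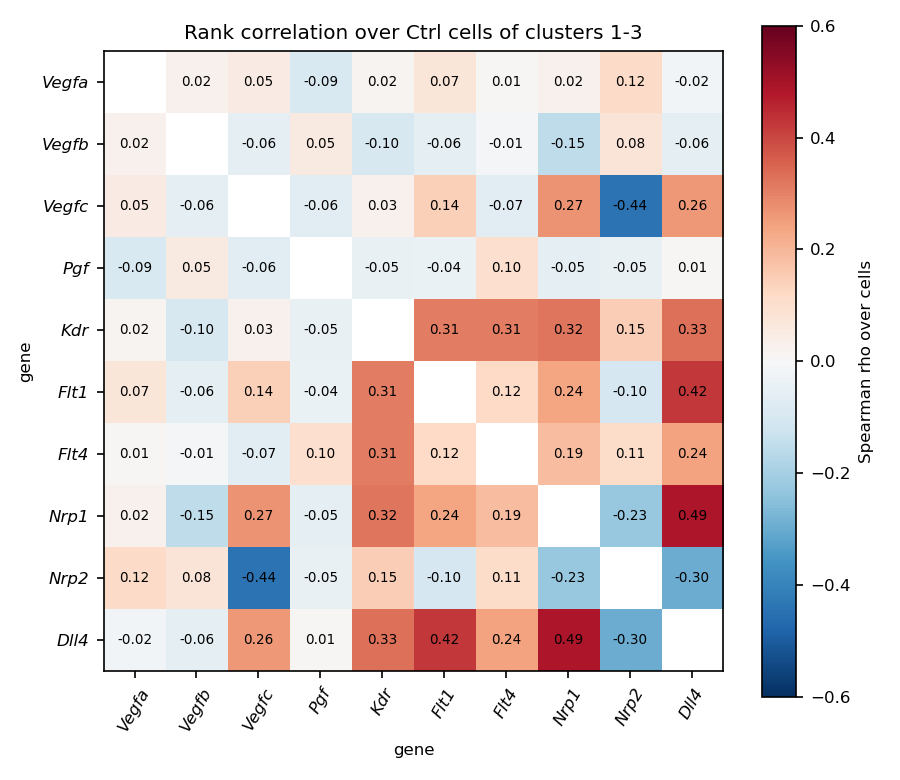
Spearman's rho of log2(CPM + 1) between each pair of members and Dll4 over the Ctrl cells of clusters 1 to 3, with genes on both axes and red for positive and blue for negative values. Nrp1, Flt1, Kdr and Flt4 have positive values with Dll4, and the lowest value is -0.44, between Vegfc and Nrp2.

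Among 10627 genes, those whose pattern over the same cells was most like each member were found by Spearman's rho. They were picked for a high rho in Ctrl cells, so a lower rho in treated cells can follow from the picking alone. Cbfa2t2, picked for Vegfa, had 0.28 in Ctrl and -0.08 in treated cells. The treated values below therefore allow no comparison of treatments. For Nrp1 they were Dll4 (0.49) and the basement membrane collagens Col4a1 (0.48) and Col4a2 (0.46). For Nrp2 they were the adhesion protein Flrt2 (0.49), the venous regulator Nr2f2 (0.48) and the apelin receptor Aplnr (0.48), which is higher in venous endothelium. For Vegfc they were Slc45a4 (0.46), the arterial ephrin Efnb2 (0.44) and the Notch target Hey1 (0.40), against 0.28, 0.14 and 0.15 in treated cells.

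For Flt1 the closest gene was Slc2a1, the glucose transporter GLUT1 (0.61), with Igfbp3, an insulin-like growth factor binding protein (0.54), and Npr3, the natriuretic peptide clearance receptor (0.50). In treated cells the rho of Flt1 was 0.71 with Slc2a1, 0.49 with Igfbp3 and 0.28 with Npr3. For Kdr they were the adhesion receptor Adgrf5 (0.46), Col4a2 (0.46) and the spectrin Sptbn1 (0.44), against 0.34, 0.22 and 0.21 in treated cells. For Flt4 they were the semaphorin Sema6d (0.40), the netrin receptor Unc5b (0.37) and the laminin Lama4 (0.36). The highest values were 0.28 for Vegfa (Cbfa2t2, then Rfx1 and Klhl12), 0.32 for Vegfb (Gid4, then Bex2 and Tmem107) and 0.28 for Pgf (Ydjc, then Rdh13 and Dusp14), whose low counts make such values weak.

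The other genes of the pathway were read from 6 lists, in which 93 genes were measured. Of these, 9 were past the fold, against 11.8% of all measured genes in either direction, so the share was near the background. Of 33 measured genes of receptor signalling, 10 were higher and 23 lower in treated cells, with a median log2 ratio of -0.07 against 0.00 over all measured genes. Pik3r1, a regulatory subunit of PI3-kinase, was past the fold (45.4 CPM in Ctrl, 68.2 CPM in treated cells) and was higher in 6 of 6 runs. Vav2, an exchange factor for Rac, was at 7.70 and 12.6 CPM, and Nfatc1, a calcineurin-dependent transcription factor, was at 71.4 and 48.9 CPM. Plcg1, the phospholipase that docks on Kdr, was at 255 and 207.1 CPM, lower in 6 of 6 runs and under the fold used.

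Of 11 measured VEGF-responsive genes, 4 were higher and 7 lower, with a median log2 ratio of -0.12. Dll4 was lower in treated cells in 6 of 6 runs, with 426 CPM in Ctrl (runs 237.4 to 578, median 414) against 233.5 CPM in treated cells (runs 178.1 to 275, median 242.3), a log2 ratio of -0.86. Apln, the apelin ligand of sprouting cells, was higher, at 65.3 and 124.6 CPM (log2 ratio 0.92), in 4 of 6 runs. Esm1, also known from sprouting tips, was at 185.4 and 86.9 CPM, with opposite signs in the blocks (log2 ratios -1.55 and 0.18).

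Semaphorins and plexins, the other partners of neuropilins, had 5 of 9 measured genes higher and 4 lower, with a median of 0.06. Plxna2, a semaphorin co-receptor, was past the fold at 21.7 and 36.4 CPM, and Sema3a, a neuropilin ligand, at 2.96 and 1.28 CPM. Plxnd1, the plexin of endothelium, was at 510 and 548 CPM, a log2 ratio of 0.10. Of 21 measured transcription regulators, 10 were higher and 11 lower, and 2 were past the fold, against 11.8% of all measured genes. The 2 regulators were Egln3, an oxygen-sensing hydroxylase (65.6 and 98.6 CPM), and Prox1, the lymphatic regulator (36.1 and 16.6 CPM). Prox1 was lower in 3 runs and higher in 3.

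The 14 measured genes of receptor traffic had 0 past the fold, against 11.8% of all measured genes. Of the 14, 5 were higher and 9 lower, with a median of -0.04, and 49.8% of all measured genes were lower. Ptprb, the phosphatase VE-PTP, was at 165.4 and 117.2 CPM, and Efnb2, which takes part in receptor uptake, was at 69.9 and 49.4 CPM and lower in 6 of 6 runs. Among ligand processing genes 5 were measured, 2 higher and 3 lower, with 0 past the fold. They included Furin, a protease that cuts the Vegfc precursor, at 16.4 and 21.4 CPM.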

How the data were processed

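The authors deposited raw counts for each gene in each cell. The aligner GSNAP 2015-09-29, the counter HTSeq 0.6.0 and the build mm10 are named per the submitters' processing notes, and counting settings are not given in the sources that were used. Per the labels' protocols, Smart-seq2 cDNA and Nextera XT libraries were sequenced on a HiSeq instrument. All 483 cells, with 123097 to 2870618 gene-assigned reads each, were used without a filter on cells or a search for doublets. Gene symbols, positions and exon lengths came from GENCODE M21 on the same build, with a symbol for 45229 identifiers.

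Counts were summed over cells and scaled to the summed total (CPM), with exact Poisson or Clopper-Pearson 95% intervals, computed in Python 3.11.15 with scipy 1.17.1. Amplified reads do not stand for independent molecules, so these intervals cover nothing beyond counting error. Runs are blocks of 96 consecutive library numbers. Measured genes had a read in at least 5% of all cells, and those ranked by rho with Dll4 in at least 10% of Ctrl endothelial-like cells. TMM factors of edgeR 4.0.16 served as an alternative scaling, and the other alternatives changed the cells, depth, pseudocount or measure. Genes named in the text were all members, Dll4, the 3 genes most like each member and the list genes past the fold; Plcg1, Esm1, Plxnd1, Ptprb, Efnb2 as a traffic gene and Furin were chosen after their values were seen. The members and lists were chosen with earlier results of these data known. Only the ratio of summed CPM, its fold cut and Spearman's rho were tried on simulated data.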

Additional observations from a re-analysis of the deposited data

How the results depend on the processing

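The treated over Ctrl values were recomputed under 25 alternatives. Vegfa was above 0 and Flt4 below 0 in all 25 (log2 ratios 0.07 to 1.76 and -1.25 to -0.16), Nrp1 and Vegfc were below 0 in 23, Kdr and Flt1 in 22 and Nrp2 in 18, and Vegfb and Pgf were above 0 in 23. The log2 ratio of Vegfc was 0.86 in cluster 3 alone and 0.17 in Xist-positive cells of block 2, and that of Pgf was -0.60 in cluster 2 alone and -1.71 in cluster 3 alone. Members past the fold, 3 as reported, were 5 in cluster 3 alone and 2 to 4 in the others. Vegfa was past it in 18 of 25, Pgf in 19 and Vegfc in 21. For alternatives with cells of 1 block only, the fold of 0.5 was asked without the rule on signs. Thinned to equal depth and by mean CPM over cells Vegfb (0.67 and 0.52) was past it and Vegfa was not (0.49 and 0.42), and Vegfa was also not past it with 10 CPM added, by mean log2(CPM + 1), in clusters 2 and 3 alone and in Y-positive cells of block 1. With 1 run left out the count was 2 to 4: without run 1 Vegfb joined them (0.60), without run 2 the sign of Pgf differed between the blocks, and without run 6 that of Vegfc did. Receptors and neuropilins past the fold, 0 as reported, were 3 in cluster 3 alone (Flt4, Nrp1 and Nrp2). In cluster 2 alone and by the difference of mean log2(CPM + 1) there was 1, Nrp1 in both cases. Xist-positive cells of block 2 also gave 1, Flt4. Within one cluster fewer cells were used, and otherwise the cause was not tested.

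Of 14 alternatives for the relation to Dll4, Nrp1 passed the threshold in 14, Flt1 in 12, Kdr in 10, Flt4 in 9 and Nrp2 in 7. Receptors and neuropilins past it, 5 as reported, were 1 in cluster 3 alone. They were 3 in cluster 2 alone, in block 2 alone, in treated cells and in Xist-positive Ctrl cells of block 2. The count was 4 in cluster 1 alone, in block 1 alone and by Pearson's r of log2(CPM + 1). It was also 4 in Ctrl cells of all 7 clusters and in Y-positive Ctrl cells of either block. It stayed at 5 with cells thinned to equal depth, given genes detected and total reads, and in Xist-positive Ctrl cells of block 1. The value of Spearman's rho was -0.12 for Kdr and -0.093 for Flt1 in cluster 3 alone, -0.010 for Flt4 in Y-positive Ctrl cells of block 1 and 0.034 for Nrp2 in Xist-positive Ctrl cells of block 2. Without a filter on low values, 12 list genes were past the fold in place of 9. At 329 to 1726 endothelial-like reads per treatment, Vegfa, Vegfb and Pgf rest on few reads.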

Other observations

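Most endothelial-like cells carried every VEGF receptor and neuropilin at once. All 5 receptors and neuropilins had 10 or more reads in 69.7% of Ctrl cells (exact binomial 95% interval 62.8% to 75.9%, counting error only) and 68.6% of treated cells (61.5% to 75.02%). None of the 4 ligands reached 10 reads in 52.7% of Ctrl and 59.3% of treated cells, and 2 or more ligands did so in 13 and 16 cells. Cells with all 5 receptors and neuropilins and no ligand at that depth made up 38.8% (interval 32.03% to 45.9%) in Ctrl against 41.2% (34.2% to 48.5%) after treatment. Whether the 2 traits go together beyond their separate shares was not tested. Every one of the 11 Ctrl and 18 treated cells with 10 or more Vegfa reads also had 10 or more Kdr reads, a gene that 96.5% of Ctrl and 95.4% of treated endothelial-like cells had at that depth.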
